A study of Arabidopsis thaliana with 6 samples.

Results

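DCL1, DCL2 and DCL4 are Dicer-like ribonucleases and AGO2 is an Argonaute protein of Arabidopsis thaliana. They were followed here through every non-control probe whose name begins with the locus of one of the 4 genes. These are AT1G01040 (DCL1, chromosome 1), AT3G03300 (DCL2, chromosome 3), AT5G20320 (DCL4, chromosome 5) and AT1G31280 (AGO2, chromosome 1). The rule found 12 probes of 15013 and 4 of 5154 transcript names, with 3 probes for each gene, on a custom Agilent array built for long intergenic noncoding RNAs (lincRNAs). Within a gene the probes are called 1 to 3 in the order of their design numbers, which are 8048 to 8050 for DCL1, 5383 to 5385 for DCL2, 1299 to 1301 for DCL4 and 140 to 142 for AGO2. Where on a transcript a probe lies was not analysed here, and the probe sequences were not used here.

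Dicer-like proteins cut double-stranded RNA into small RNAs, and Argonaute proteins bind those small RNAs and use them to find matching RNA or DNA. In Arabidopsis DCL1 releases microRNAs from hairpin precursors, DCL3 makes the small interfering RNAs that guide DNA methylation, and DCL4 makes trans-acting small interfering RNAs. DCL4 and DCL2 both cut the double-stranded RNA of viruses and transgenes. AGO2 is best known for its part in antiviral defence. RDR2, the gene mutated in this study, copies the transcripts of RNA polymerase IV into the double-stranded RNA that DCL3 cuts. It lies in the pathway of DCL3 rather than in the main pathways of the 4 genes described here.

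The samples were inflorescences with open flowers, buds and a few very young siliques, taken from 4-week-old plants of the Col-0 ecotype that were grown on half-strength Murashige-Skoog medium or in a greenhouse. Of the 6 samples 3 were wild type and 3 carried a mutation in RDR2, and the series names them as biological replicates. The protocols give the allele as rdr2-1, whereas the genotype field reads rdr2-1, rdr2-2 and rdr2-3 in mutant replicates 1, 2 and 3, so the mutant samples were treated as 1 group, as titled. Total RNA was labelled with Cy3, with 1 sample on each array. No floral organ identity gene of the marker list is on the array, so the tissue could not be checked by its own markers.

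The mutant arrays were the dimmer ones by the 75th percentile of intensity among probes detected on every array. It was 155 to 285 on the mutant arrays and 305 to 371 on the wild-type arrays. Between 24.1% and 37.9% of all probes were well above background on the wild-type arrays and between 17.6% and 24.8% on the mutant arrays. By this share mutant replicate 3 (24.8%) was not below wild-type replicate 3 (24.1%). The median background of mutant replicate 3 was 27, beside 13 to 15 on the other arrays. Wild-type replicates 1 and 2 shared a slide, as did mutant replicates 1 and 2, and the third replicate of each group stood on a slide of its own. Slides were scanned separately, so slide and scan are 1 factor, and no slide held both genotypes. Of the 28 markers of flower parts, pollen, seed, leaf, root and meristem listed, the 4 on the array were the seed maturation genes FUS3, LEC1, ABI3 and EM1. The scaled signal summed over their probes was 225 to 244 on the wild-type arrays and 87.5 to 105.3 on the mutant arrays. Most of that sum came from FUS3. Probes of FUS3 and EM1 were called lower, and those of LEC1 and ABI3 were not. The part of these differences in the results below was not tested.

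RDR2 itself (AT4G11130) was checked first. On its probe 1 the scaled signal, the processed intensity where 100 is the array's 75th percentile among the 2369 probes that every array detected above background, was 395, 381 and 454 on wild-type arrays against 61.4, 62.0 and 66.4 on mutant arrays. The mutant arrays lay far below the wild-type arrays, as the labels of the 2 groups imply. The log2 fold change, mutant minus wild type, was -2.69 on probe 1, -2.73 on probe 2 and -2.63 on probe 3, with limma adjusted p of at most 0.000301.

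DCL2 was the 1 gene of the 4 with any probe called in the limma fit with genotype alone. It fell on all 3 of its probes, by 2.02-fold, 1.83-fold and 1.82-fold, and no mutant array reached a wild-type array on any of them. Such a separation, with every mutant array below every wild-type array, was seen for 26.6% of all tested probes. DCL2 makes small interfering RNAs from viral and transgene RNA and can stand in for DCL4. On DCL2 probe 1 wild-type replicates 1 to 3 had scaled signals of 290, 304 and 321, and their mutant counterparts had 127, 140 and 191. The highest mutant value, that of replicate 3, was still well under the lowest wild-type value. The log2 fold change on probe 1 was -1.02 (SE 0.184, limma adjusted p = 0.0226), with means of 305 ± 15.2 and 153 ± 33.8 (SD, n = 3 each).

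On DCL2 probe 2 the wild-type signals were 133, 145 and 158 and the mutant signals 88.0, 75.9 and 74.6. Here mutant replicate 3 was the lowest array rather than the highest, so the order of the mutant arrays was not shared by the probes. The log2 fold change was -0.87 (SE 0.135, limma adjusted p = 0.0143). On DCL2 probe 3 the wild-type signals were 234, 262 and 276 and the mutant signals 138, 115 and 177, a log2 fold change of -0.86 (SE 0.193, limma adjusted p = 0.0410). Averaged over its probes before the fit, DCL2 stood at -0.92 (95% confidence interval -1.29 to -0.55, limma adjusted p = 0.0225). That is 1.89-fold lower, with an interval of 1.46-fold to 2.44-fold. This fit treated the arrays as independent, although 2 of the 3 arrays in each group shared a slide. Arrays of a group correlated at 0.994 to 0.995 on a shared slide and at 0.969 to 0.977 across slides. With slide as a random block the slide correlation was 0.77. The interval and p of the averaged fit take no account of this, so they may look tighter than the design allows. These are bulk samples, so fewer cells that express a gene and less of its RNA per cell cannot be told apart.

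**Figure D1:**
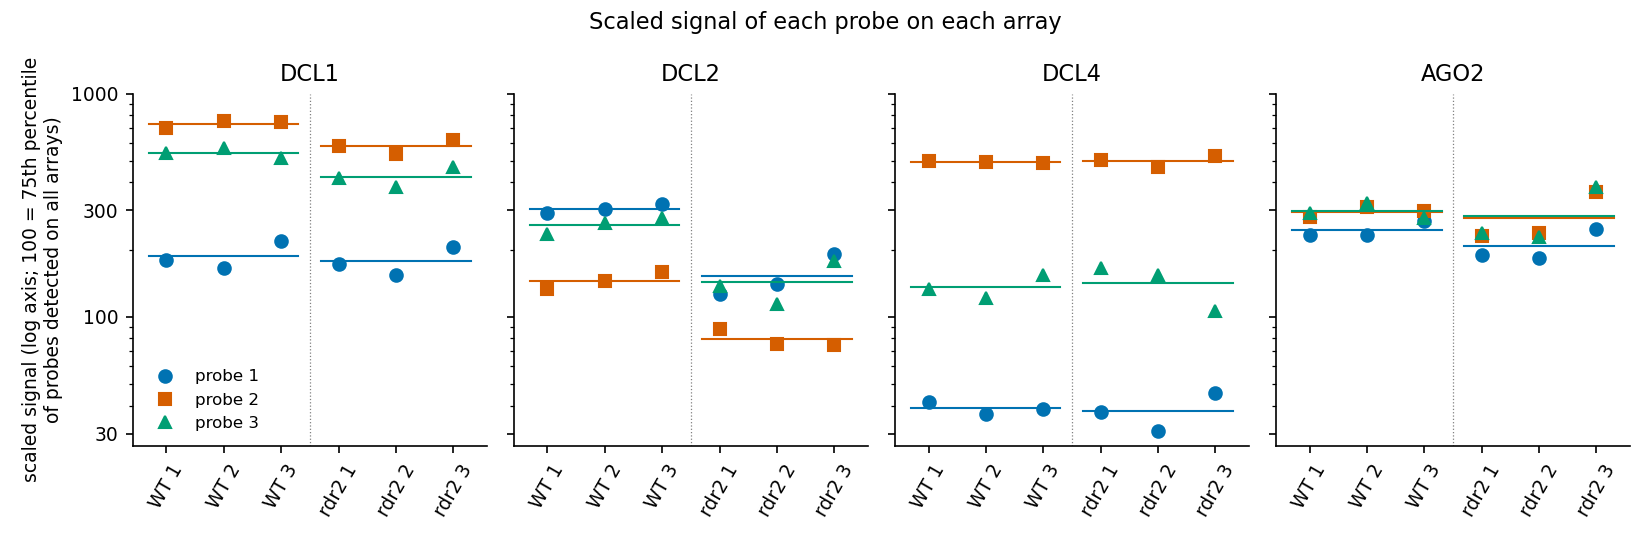
Scaled signal (log axis, where 100 is the 75th percentile of those probes that every array detected above background) of the 3 probes of each gene on the 3 wild-type (WT) and 3 mutant (rdr2) arrays, with a line at each group mean. The DCL2 panel shows the mutant arrays below the wild-type arrays on every probe, from 305 to 153 on probe 1, while the DCL4 lines are level.

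The fall of DCL2 has to be read against the other probes of the array. Of 3345 tested probes 284, or 8.49%, were called lower and 171, or 5.11%, were called higher. Of the 12 probes of the 4 genes 3 were called lower, all of DCL2, and 0 were called higher in the limma fit. Among the 251 tested probes of protein-coding loci 12% were called lower and 4.78% higher. The 3 DCL2 probes report on 1 gene and are not independent. Among 595 transcripts with 3 tested probes, 24 (4.03%) had all 3 called lower, and DCL2 was among these. Its log2 fold changes were not extreme. Between 15.0% and 19.1% of tested probes lay as low or lower, and the median tested probe lay at -0.26. Relative to that median the DCL2 probes stood at -0.76, -0.61 and -0.60.

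The DCL2 calls were lost in several alternative analyses, although all 3 probes were lower in the mutant in each of the 17 alternatives fitted by probe. When slide entered as a random block, probes 1 to 3 had adjusted p of 0.114, 0.112 and 0.249 at log2 fold changes of -0.96, -0.91 and -0.82. With the 75th percentile taken over all probes, most of them at background, the log2 fold changes shrank to -0.41, -0.26 and -0.25 (SE 0.55 each) and none was called. That scaling moves every probe by the same amount, so the DCL2 mean relative to the median tested probe stayed at -0.66. No DCL2 probe was called without wild-type replicate 1, without wild-type replicate 2 or without mutant replicate 2. Probe 2 alone was called without mutant replicate 1 (adjusted p = 0.0449), and all 3 were called without wild-type replicate 3 or mutant replicate 3. Without wild-type replicate 3, however, 2053 of 4799 tested probes were called lower and the median tested probe lay at -0.71. Relative to that median the DCL2 mean stood at only -0.16, beside -0.66 with all arrays. Without the 2 dimmest arrays, mutant replicates 1 and 2, the log2 fold changes against the 1 mutant array left were -0.56, -0.85 and -0.43. None was called, but in that fit the lone mutant array is assumed to vary like the wild-type arrays, and RDR2 was not called either.

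DCL1, the Dicer of the microRNA pathway, was somewhat lower on 2 of its probes and was not called on any. On DCL1 probe 2 wild-type arrays read 698, 757 and 744 and mutant arrays 584, 536 and 620. The groups did not overlap, and the log2 fold change was -0.34 (95% confidence interval -0.63 to -0.04, limma adjusted p = 0.114). On DCL1 probe 3 the signals were 543, 568 and 513 against 418, 382 and 470, again with no overlap, at -0.36 (-0.68 to -0.03, limma adjusted p = 0.124). On DCL1 probe 1 they were 180, 165 and 220 against 172, 154 and 206, and here the groups overlapped, at -0.08 (-0.52 to 0.36, limma adjusted p = 0.766). In both groups the third replicate was the highest array on this probe. A separation of the groups with the mutant below was common on these arrays, at 26.6% of tested probes, and was seen for 5 of the 12 probes described here. The DCL1 changes on probes 2 and 3 differ from that of the median tested probe by only -0.08 and -0.10 in the main fit. This closeness depended on the processing. Relative to the median tested probe the DCL1 mean stood at -0.00103 in the main fit and at -0.35 with quantile normalization. Over the 17 alternatives fitted by probe it ran from -0.42 to 0.47. With normexp background correction, which models the spot and background signals, DCL1 probes 2 and 3 were called lower (adjusted p = 0.0469 and 0.00491). DCL1 probe 3 was also called without mutant replicate 3, at -0.45 (adjusted p = 0.0480).

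DCL4, which makes trans-acting small interfering RNAs and is the main antiviral Dicer, had nearly level signals. On its brightest signal, probe 2, the wild-type arrays read 499, 493 and 490 and the mutant arrays 505, 471 and 526. The log2 fold change on DCL4 probe 2 was 0.02, with a 95% confidence interval of -0.26 to 0.29 (limma adjusted p = 0.924). On DCL4 probe 1, the dimmest of the 12, the signals were 41.3, 36.6 and 38.8 against 37.5, 30.9 and 45.4. On DCL4 probe 3 they were 134, 122 and 154 against 166, 154 and 106, and mutant replicate 3 was the lowest of all 6 arrays. The groups overlapped on every DCL4 probe. Probes 1 and 3 stood at -0.05 and 0.04, with intervals of -0.48 to 0.38 and -0.49 to 0.57. Averaged over the probes, DCL4 stood at 0.00187 on the log2 scale with an interval of -0.30 to 0.30. That interval leaves out changes of the size seen for DCL2, and the median tested transcript, at -0.32 in the same fit, lies just outside it. Like that of DCL2, the interval takes no account of shared slides. The level of DCL4 depends on the scaling, since the 75th percentile of all probes, which moves every probe up alike, put its mean at 0.61.

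**Figure D2:**
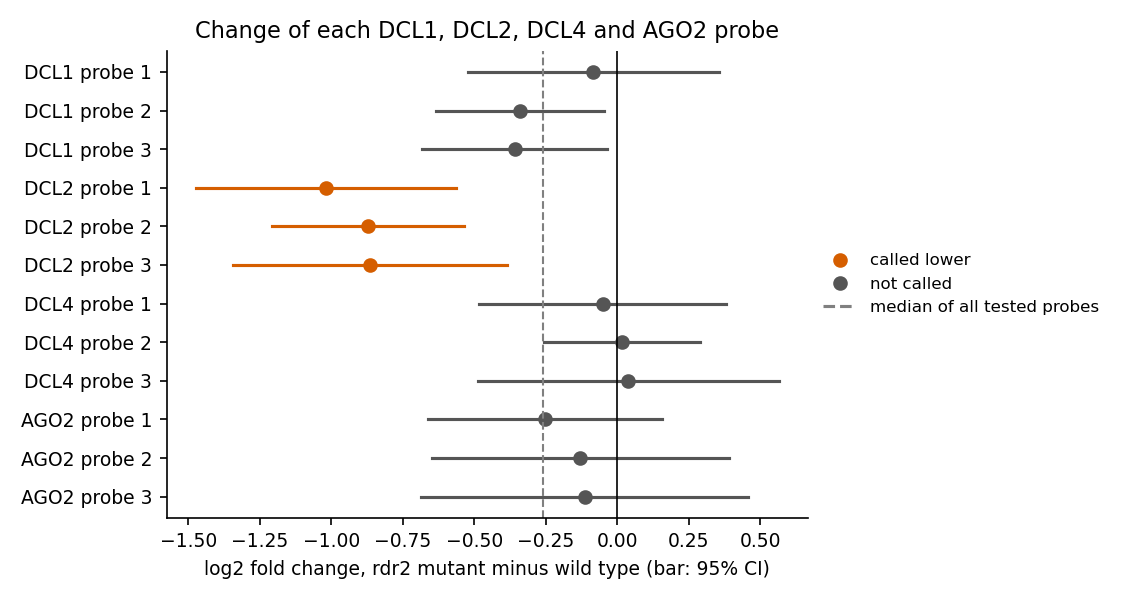
Log2 fold change, mutant minus wild type, of each of the 12 probes, with the 95% confidence interval from limma as a bar and the median of all 3345 tested probes (-0.26) as a dashed line. The DCL2 probes lie from -1.02 to -0.86, and the intervals of the DCL4 and AGO2 probes span 0.

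AGO2, the antiviral Argonaute, varied more within the mutant group than between the groups. On AGO2 probe 3 the wild-type signals were 292, 322 and 278, and the mutant signals were 236, 229 and 381. Mutant replicates 1 and 2, which shared a slide, lay below every wild-type array, while mutant replicate 3 lay above every one. AGO2 probe 2 showed the same order, with 279, 310 and 297 against 230, 236 and 363. On AGO2 probe 1 the signals were 232, 233 and 268 against 189, 183 and 248. Mutant replicate 3 was thus the highest mutant array on each AGO2 probe. The log2 fold changes were -0.25, -0.13 and -0.11 for probes 1 to 3, with adjusted p of 0.322, 0.689 and 0.754. Averaged over its probes AGO2 stood at -0.16, with the widest interval of the 4 genes, -0.66 to 0.33. Without mutant replicate 3 the largest difference among the AGO2 probes was -0.41, and none was called. With normexp background correction AGO2 probe 3 was called lower, at -0.53 (adjusted p = 0.0173).

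The 4 genes were also compared with each other within each array, because the difference between 2 genes on 1 array cannot be moved by the scaling of that array. Each gene was taken as the mean log2 signal of its probes, and each difference was centred on its wild-type mean. The difference DCL2 minus DCL4 was -0.14, 0.09 and 0.05 on the wild-type arrays and lay between -1.05 and -0.71 on the mutant arrays, a change of -0.92. DCL2 minus AGO2 changed by -0.75, with mutant arrays at -0.61, -0.70 and -0.95. DCL2 minus DCL1 changed by -0.66, with mutant arrays at -0.69, -0.66 and -0.62. Relative to each of the other genes DCL2 was lower on every mutant array than on any wild-type array, in all 3 comparisons with a gap between the groups of at least 0.55. The 3 comparisons share the DCL2 values, which already separated the groups, so they are not independent of each other or of the probe results. How often other pairs of genes separate the groups was not tested. DCL1 minus DCL4 changed by -0.26, with groups 0.0212 apart, and the differences DCL1 minus AGO2 (-0.10) and AGO2 minus DCL4 (-0.17) overlapped between the groups. In a two-sided exact permutation test the 4 pairs without overlap each gave p = 0.1, the smallest that 3 arrays against 3 allow, and an adjusted p of 0.15 over the 6 pairs. The test treats the arrays as independent and takes no account of shared slides. The comparison within arrays was added after the values had been seen.

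**Figure D3:**
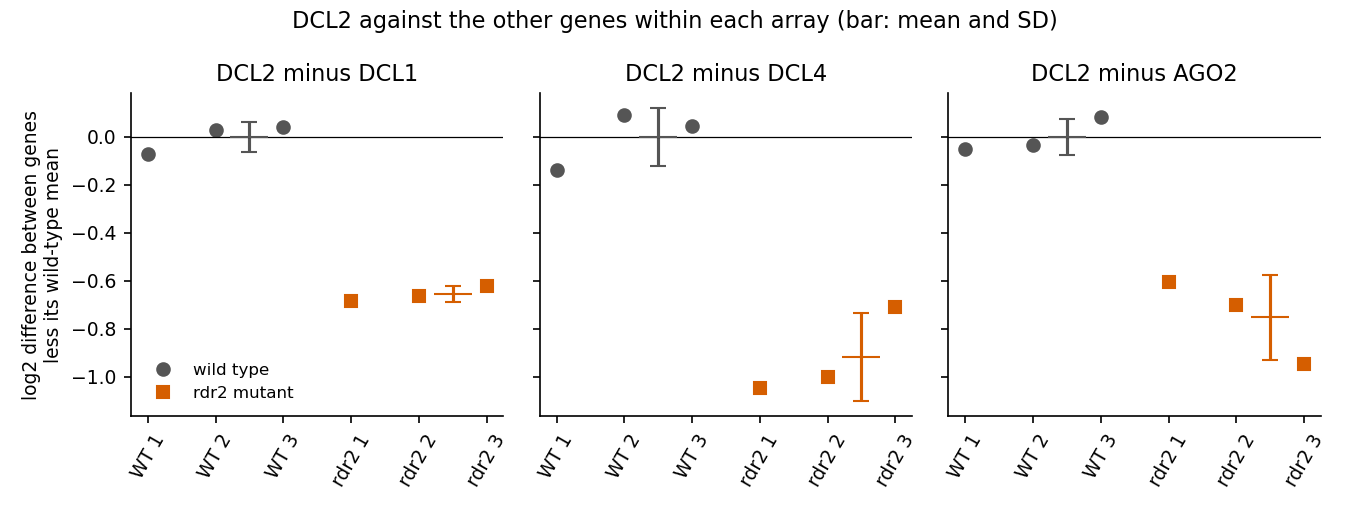
Log2 difference between DCL2 and each of DCL1, DCL4 and AGO2 on each array, centred on the wild-type mean, with the group mean and SD drawn as bars. On the 3 mutant arrays all differences lie between -0.61 and -1.05.

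MicroRNA precursors tied to these genes were measured on the same arrays. The DCL1 transcript is a known target of miR162, and its gene contains the MIR838 hairpin, which the TAIR10.1 annotation places inside the DCL1 interval. AGO2 is a known target of miR403. The array held all 6 listed precursors, with MIR168a and MIR168b (whose miRNA targets AGO1) among them, and 0 of their 8 tested probes were called in the limma fit. With 8.49% of all tested probes called lower and 5.11% higher, 0 of 8 says little about these precursors. On MIR162a probe 2 wild-type arrays read 72.2, 60.2 and 66.9 and mutant arrays 53.6, 56.6 and 58.6, without overlap, for a log2 fold change of -0.24 (limma adjusted p = 0.235). MIR162a probe 1 stood at -0.29, and was called lower only without mutant replicate 3 (adjusted p = 0.0365). MIR162b stood at 0.16 (adjusted p = 0.484). MIR403, the precursor of the miRNA that targets AGO2, was dim at a scaled signal of 2.7 to 4.2, with log2 fold changes of 0.30 and 0.25 on its probes (adjusted p = 0.219 and 0.384). With quantile normalization these were 0.95 and 0.90, again not called (adjusted p = 0.186 and 0.171). None of the 3 MIR838 probes rose well above background on an array, so the hairpin hosted by DCL1 gave no measurable signal. These probes report on precursor transcripts, and the mature miRNAs were not measured.

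Of 33 other genes of the small-RNA pathways listed, 6 were on the array, with 18 probes, all of them tested. Of these probes 3 were called higher and 4 lower, RDR2 included, beside 5.11% and 8.49% of all tested probes. Besides RDR2, 1 gene was higher on all its probes and 1 was called lower on a single probe. NRPD1, the largest subunit of RNA polymerase IV, rose on all 3 probes, with log2 fold changes of 1.15, 0.90 and 1.02 (limma adjusted p = 0.0104, 0.00842 and 0.00413). All NRPD1 probes were higher in the mutant under every alternative, but a random block for slide kept the call of probe 3 alone (adjusted p = 0.0647, 0.0547 and 0.0354), and averaging the arrays of a slide kept none (0.197, 0.202 and 0.163). Scaling to the 75th percentile of all probes ended the calls of probes 2 and 3 (0.0931 and 0.0599), and both weaker filters on dim probes ended all 3. The probe 1 call was lost without wild-type replicate 1 (0.0603), wild-type replicate 2 (0.0558) or mutant replicate 1 (0.0561), and the probe 2 call without mutant replicate 1 (0.0514). DRB4, the double-stranded RNA binding partner of DCL4, fell on probe 3, where the signals were 571, 548 and 571 against 405, 408 and 423 (log2 fold change -0.45, limma adjusted p = 0.0448). DRB4 probe 1 stood at -0.03. DRB4 probe 2 stood at -0.73 with an SE of 0.476 and was not called (limma adjusted p = 0.321), with mutant replicate 3 at 117 beside 387 and 340 on the other mutant arrays. The spot of this probe was flagged as non-uniform on 1 array, and which array that was is not given here. With slide as a random block the DRB4 call was lost (adjusted p = 0.266), and scaling to the 75th percentile of all probes put probe 3 at 0.16. That scaling moves every probe by the same amount, so the place of probe 3 relative to the median tested probe, -0.19, did not change.

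DCL3, the Dicer that acts directly after RDR2, was not called on any probe, at -0.38, -0.24 and -0.40 (adjusted p = 0.105, 0.336 and 0.204). Its probe 1 read 525, 544 and 458 on wild-type and 406, 367 and 398 on mutant arrays, with no overlap, and it was called lower with normexp, at -0.41 (adjusted p = 0.0149). NRPE1, the polymerase V counterpart of NRPD1, and DRB2, another double-stranded RNA binding protein, had 0 of 6 probes called between them in the same limma fit. Over all tested probes 8.49% were called lower and 5.11% higher, so 0 of 6 is not out of the ordinary. The median log2 fold change over the 18 probes was -0.22, beside -0.19 over the 12 probes of the 4 genes and -0.26 over all tested probes.

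**Figure D4:**
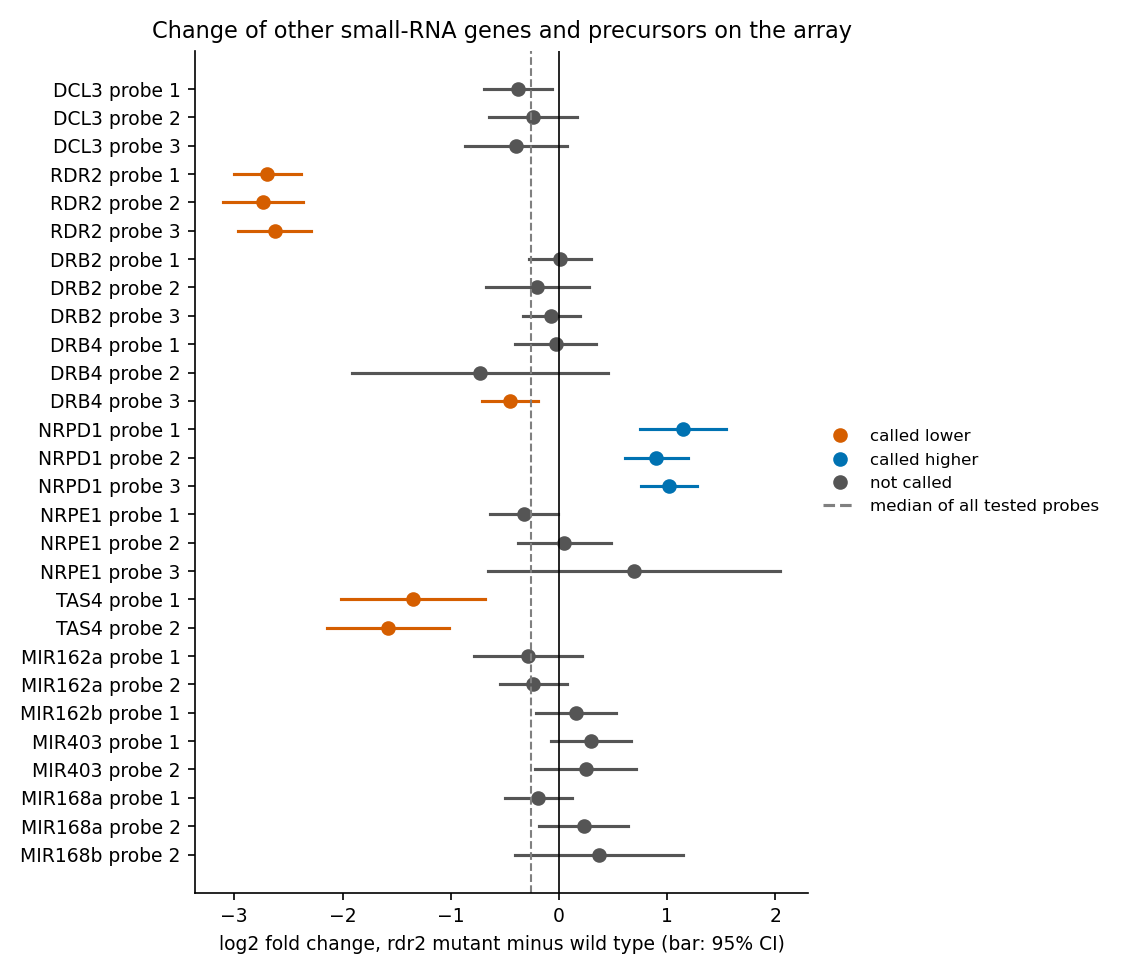
Log2 fold change, mutant minus wild type, with 95% confidence intervals from limma, for the tested probes of the other small-RNA genes, the TAS4 precursor and the miRNA precursors. RDR2 lies near -2.7, NRPD1 between 0.90 and 1.15, and TAS4 at -1.35 and -1.58.

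Of 7 precursors of trans-acting small interfering RNAs, the class of small RNA that DCL4 makes, the array held TAS4 (AT3G25795, chromosome 3). TAS4 was dim, and its probes 1 and 2 entered the test only through the wild type, where they were well above background on all arrays. Their log2 fold changes were -1.35 and -1.58 (limma adjusted p = 0.0301 and 0.0112), values that rest in part on mutant signals at background. On TAS4 probe 2 the wild-type arrays read 8.36, 8.04 and 6.33 and the mutant arrays 1.90, 2.75 and 3.06, and only 1 of the mutant arrays was well above background. On probe 1 this held for 2 mutant arrays, and no array had probe 3 well above background. With normexp the log2 fold changes were -0.18 and -0.20 and neither was called, and a random block for slide gave adjusted p of 0.377 and 0.134. Neither probe was called when wild-type replicate 1 was left out (adjusted p = 0.1051 and 0.0536), nor when wild-type replicate 2 was (0.118 and 0.0642).

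The loci whose profile over the 6 arrays was most like that of each gene were found among 347 other loci, by the root mean square difference of the centred log2 profiles. DCL2 was closest to JAZ6 (AT1G72450), a repressor of jasmonate signalling, at 0.0932, and to the noncoding RNA AT4G12917 at 0.106. Those loci were themselves lower in the mutant, by -0.78 and -0.77 on the log2 scale. DCL4 was closest to COP1 (AT2G32950), a ubiquitin ligase of light signalling, at 0.0203, and to the long noncoding RNA AT3G52535 at 0.0262. DCL1 was closest to the photoreceptor gene PHYA (AT1G09570) at 0.0360 and to AT3G62895 at 0.0393. AGO2 was closest to the noncoding RNAs AT5G01595 and AT3G07215, at 0.0584 and 0.0682. The median locus lay 0.416 from DCL2, 0.195 from DCL4, 0.184 from DCL1 and 0.233 from AGO2.

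**Figure D5:**
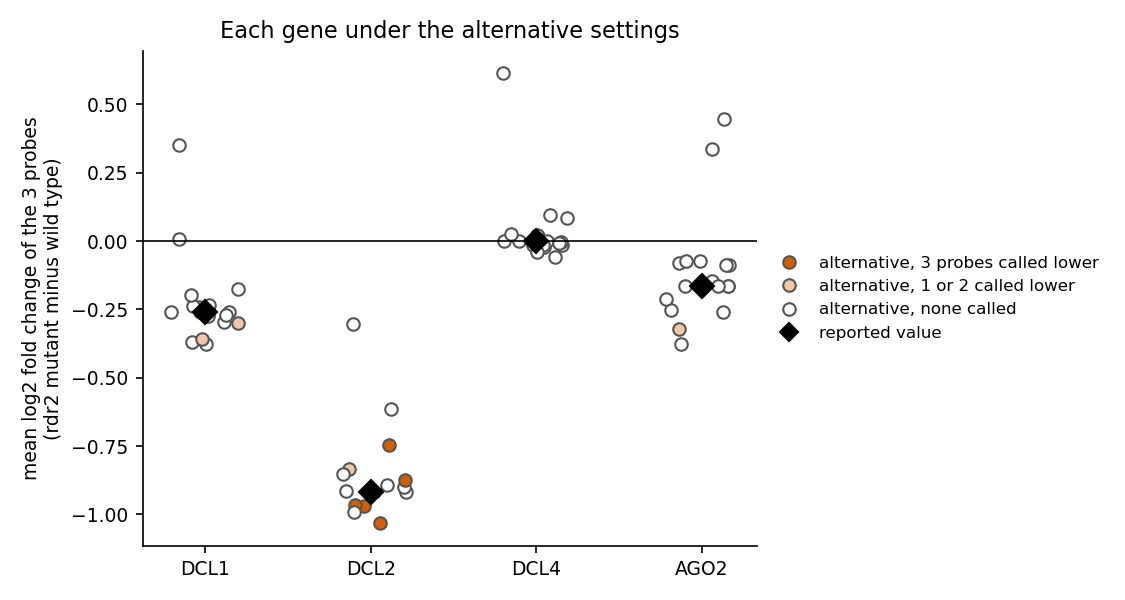
Mean log2 fold change over the 3 probes of each gene under each of 17 alternative analyses (circles) and as reported (diamonds). The circles of DCL2 lie between -1.03 and -0.30, all below 0, and those filled in the darker orange mark the 5 alternatives with all 3 probes called lower.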

How the data were processed

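Per the file headers, the authors extracted 5 arrays with Agilent Feature Extraction 10.5.1.1, and the array of mutant replicate 3 with 10.7.3.1, in 1 channel. They deposited a background-subtracted intensity (the processed signal) beside the uncorrected median intensity of each spot and its background. A further table deposited by the authors holds log2 values, with medians of 0.949 to 0.950; recomputing them matched quantile-normalized log2 processed signals floored at 1, with at least 99.86% of values within 0.1. Direction and centring follow from that match.

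The main values were log2 processed signals, scaled per array to the 75th percentile of the 2369 probes that stood well above background on every array. Testing used limma 3.58.1 (R 4.3.3) with genotype alone in the model, so its intervals and p take no account of shared slides. It covered the 3345 probes detected in this way on each array of either group, and Benjamini-Hochberg adjusted p of 0.05 was the threshold. All 12 probes of the 4 genes were well above background on all 6 arrays, and 0 were saturated or flagged. The number of arrays limits the precision. The procedure was tested on simulated data. The simulated arrays were drawn independently, so the effect of shared slides on the calls was not tested. Exact permutation tests used SciPy 1.17.1 and figures matplotlib 3.10.9.

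The genes, lists and tests were chosen with earlier results of these data known. Named were every probe of the 4 genes, RDR2, listed genes past the threshold or else with the smallest p, and the 2 loci most like each gene; DCL3 and further miRNA precursor values were added as chosen after their values were seen. Symbols came from a RefSeq table of TAIR10.1, which held 400 of 405 loci. Its coordinates were used here only to place MIR838 inside the DCL1 interval, since the build of the array design differs. Same-numbered replicates of the 2 groups did not deviate together (correlations -0.07, 0.0164 and -0.0235), so the numbers were not taken to pair the samples.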

Additional observations from a re-analysis of the deposited data

How the results depend on the processing

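No probe of the 4 genes was called higher under any of the 18 alternatives. The number called lower, 3 as reported, was 6 with normexp background correction (3 of DCL2, 2 of DCL1 and 1 of AGO2). It was 0 when all probes set the 75th percentile, with no filter on dim probes, with a filter on at least 1 array, with slide as a random block, with the arrays of a slide averaged, with the replicate block and, added after the data were seen, without the 2 dimmest arrays. Leaving out 1 array gave 0 to 4, with 1 call of DCL1 probe 3 among the 4 without mutant replicate 3. The filter changes leave the DCL2 fold changes as they are, but limma's standard errors rose, from 0.184 to 0.275 on probe 1 with no filter, and more probes entered the adjustment (adjusted p = 0.156 to 0.230). With the replicate block the DCL2 adjusted p was 0.0745, 0.0918 and 0.101. With the arrays of a slide averaged it was 0.285, 0.212 and 0.325. Median scaling ended the call of DCL2 probe 3 (0.0808). The cause of the other changes was not tested. Over all tested probes the calls ran from 16 higher and 11 lower without the 2 dimmest arrays to 190 higher and 2053 lower without wild-type replicate 3. Quantile normalization called 172 probes higher and 146 lower, and median scaling 191 and 186. Taking the 75th percentile from every probe called 125 and 36, normexp 227 and 240, and the values as deposited 171 and 138. They were 39 and 20 with no filter, 45 and 34 when 1 array above background was enough, 57 and 55 with slide as a random block, 29 and 16 with slides averaged and 58 and 71 with the replicate block. Without wild-type replicates 1 and 2 they were 85 and 89, and 73 and 72. Without mutant replicates 1, 2 and 3 they were 73 and 101, 85 and 103, and 276 and 476.

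Signs turned only for values that had not been called, and for DRB4 probe 3. With the 75th percentile over all probes, which moved the median tested probe from -0.26 to 0.35, the log2 fold changes were 0.53, 0.27 and 0.25 for DCL1, 0.56, 0.63 and 0.65 for DCL4 and 0.36, 0.48 and 0.50 for AGO2. They were 0.23, 0.37 and 0.22 for DCL3, 0.58 and 0.16 for DRB4 probes 1 and 3, and 0.33 and 0.38 for MIR162a. Without the 2 dimmest arrays the values were 0.25 for DCL1 probe 1, 0.33 and -0.25 for DCL4 probes 1 and 3, 0.13, 0.41 and 0.47 for AGO2, 0.0715 for DCL3 probe 2, 0.31 for DRB4 probe 1 and 0.23 for MIR162a probe 1. Median scaling gave 0.00140 for DCL1 probe 1, 0.0335 for DCL4 probe 1 and 0.0531 for DRB4 probe 1. DCL4 probes 1 and 2 stood at 0.0601 and -0.13 with quantile normalization, 0.0600 and -0.12 in the values as deposited, and under normexp at 0.00109 and -0.0404. DCL4 probes 1 and 3 and AGO2 probe 3 stood at 0.00594, -0.0782 and 0.00292 with slide as a random block and at 0.0185, -0.10 and 0.0287 with slides averaged. Leaving out 1 array gave -0.21 to 0.0269 for DCL1 probe 1, -0.20 to 0.0757 for DCL4 probe 1, -0.0360 to 0.0487 for DCL4 probe 2, -0.10 to 0.22 for DCL4 probe 3, -0.37 to 0.00463 for AGO2 probe 3 and -0.16 to 0.0352 for DRB4 probe 1. RDR2 was called on all probes in every alternative except without the 2 dimmest arrays (adjusted p of at most 0.0735).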
